A study of Danio rerio with 13 samples.

Results

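The genes described here are 10 antioxidant defence genes of the zebrafish: 9 enzymes that remove reactive oxygen species or their source (sod1, sod2, cat, gpx1a, gpx4a, gpx4b, prdx1, prdx2 and hmox1a) and 1 transcription factor, nfe2l2a, that drives the expression of many such enzymes. They were chosen by name. Of the 32677 genes in the RNA-seq table, 6 were found because the table's own symbol list held a member's name, and the other 4 (gpx4a, prdx1, hmox1a and nfe2l2a) were found by their gene identifiers. The table lists prdx1 and prdx2 together as names of 1 gene, which is prdx2. The gene that the name table and the peak annotation give as prdx1 is a different one.

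The cells were ZF4, a fibroblast line derived from zebrafish embryos. They were grown at 28°C, the usual temperature of the line and here called the control, or kept in the cold, at 18°C. The cold lasted for a short term (5 d, 18°C/5d in the plots) or a long term (30 d, 18°C/30d). The labels give no day for the control libraries, so cold and time in culture cannot be told apart here. All groups were of the same line and genotype as far as the labels say, without any transgene or drug, and a single cell line limits them as a model of the animal. RNA-seq covered 3 libraries in each of the 3 conditions, 9 in all, and methylated DNA immunoprecipitation sequencing (MeDIP-seq), in which an antibody captures DNA fragments with methylated cytosines, covered 1 library per condition, each made from 3 pooled cultures.

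Superoxide that leaks from respiration is turned into hydrogen peroxide by superoxide dismutases, and the peroxide is then removed by catalase in peroxisomes and by glutathione peroxidases and peroxiredoxins in other compartments. Glutathione peroxidase 4 also reduces lipid peroxides in membranes. In mammals the protein NRF2, which is the counterpart of Nfe2l2a, is held in the cytoplasm and degraded until oxidants release it, and it then activates many genes of this defence, including heme oxygenase 1.

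Total RNA-seq counts ranged from 21407769 to 44853311 per library, and the 3 libraries numbered 3 were the shallowest of each condition, with at most 22504969 counts. In those 3 libraries a single gene took 7.25 to 7.77% of all counts, against 0.652 to 1.42% in the other 6. Of 16 fibroblast markers, 13 were at an RPKM (reads per kilobase of transcript and 1000000 counted reads) of 1 or more in every library. Below 1 in all were dcn and thy1, and vim lay on both sides of 1, at 0.47 to 1.45. Of 17 markers of other cell types, 12 were below an RPKM of 1 in every library. The exceptions that were at 1 or more in every library were 2, the epithelial cadherin gene cdh1 and the muscle gene myod1. At 0 throughout were sox10 and cdh5, which mark neural crest and endothelium. Other endothelial markers were detected, kdrl at an RPKM of up to 0.65 and fli1a at 0.45 to 2.68. The neuronal marker elavl3 was at 1.92 to 3.57 in replicates 1 and 2 of all conditions and at 0.1 to 0.18 in replicate 3. Control replicate 3 stood apart in the keratin gene krt4, with an RPKM of 38.7 against at most 1.81 in the other 8 libraries, and in the fibroblast marker lum, with 108 against at most 17.4. The summed RPKM of the fibroblast markers was 1212 to 2062 in the controls, 1188 to 1267 after 5 d and 757 to 1685 after 30 d. That of the other markers was 48.3 to 86.5, 57.9 to 69.5 and 37.9 to 63.2, and the part of cell composition in the results below was not tested. In bulk RNA, fewer cells that express a gene and less RNA per cell cannot be told apart.

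Most of the antioxidant genes were well expressed already in the controls. In RPKM, which allows levels of different genes to be compared, the phospholipid hydroperoxide peroxidase gene gpx4b stood at 125 ± 19.5 (SD, n = 3) and the cytosolic peroxiredoxin gene prdx2 at 120 ± 30.8. Their ranges overlapped. They were followed by prdx1 with an RPKM of 43.5 ± 29.8, gpx1a with 27.6 ± 6.03, sod2 with 25.4 ± 8.38, sod1 with 21.8 ± 7.44, nfe2l2a with 16.0 ± 6.23 and cat with 15.9 ± 2.69, of which each overlapped with the next. Below them came hmox1a with an RPKM of 3.37 ± 1.49, and gpx4a was almost silent with 0.0167 ± 0.0289. By RPKM in the controls, gpx4b was above 98.8% of the 32677 genes and cat above 90.9%, whereas hmox1a was above 71.4%.

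From place 4 to place 10 the genes kept the same order by mean RPKM in all 3 conditions, and only the upper 3 exchanged places. After 5 d, prdx1 had the highest mean RPKM of the 10 genes, 165 ± 128, and its range overlapped with that of gpx4b at 116 ± 8.64. After 30 d, prdx2 (RPKM 124 ± 18.34), gpx4b (101 ± 19.5) and prdx1 (88.4 ± 11.9) were the upper 3 and each overlapped with the next. In both cold conditions gpx1a, at place 4, did not overlap with its lower neighbour sod2, which it had overlapped in the controls.

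No antioxidant gene passed the test in any comparison. The test was edgeR's quasi-likelihood test on the counts of all 9 libraries, with Benjamini-Hochberg adjustment over the 19622 genes tested and a call at an adjusted p under 0.05. All 10 genes were among those tested, but gpx4a passed the count filter only through its cold libraries. Over all genes, 0 were called after 5 d against the controls (0% of those tested), 12 after 30 d against the controls (0.0612%) and 0 between the times (0%). The unadjusted p was under 0.05 in 2220, 2679 and 252 genes (11.3%, 13.7% and 1.28%), and among the antioxidant genes in 3, 2 and 0. Libraries numbered 3 resembled each other across conditions and differed from those numbered 1 and 2. With the replicate number as a block 51 (0.26%), 297 (1.51%) and 0 (0%) genes were called, again with 0 antioxidant genes. DESeq2 called 555 (2.68%), 899 (4.34%) and 2 (0.00761%) genes, and among them 1 antioxidant gene, gpx1a after 5 d. These DESeq2 shares are of the 20711, 20711 and 26269 genes to which it gave an adjusted p, and not of the 19622.

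In the comparison with the controls, 2 genes were separated in the same way at both times. All 6 cold libraries had more gpx1a mRNA than any control library, and all 6 had less cat mRNA. Of the 19622 genes tested, 1194 (6.09%) were higher and 961 (4.9%) lower without overlap at both times. With 1 of the 10 genes in each direction, the antioxidant genes were near these shares. Without overlap between the 3 cold and the 3 control libraries, 2 of the 10 genes were higher after 5 d (gpx1a and prdx1), where 9.27% of all tested genes were, and 1 was lower (cat), where 8.35% were. After 30 d, 2 genes were higher (gpx1a and the barely detected gpx4a) and 1 was lower (cat), against 10.3% and 8.5% of all tested genes. The gene gpx4a entered the test only through its counts in the cold, with 0, 8 and 0 counts in the controls. Neither its separation nor its pairs below can therefore count as support. Compared pair by pair within replicate numbers, 3 genes were higher in all 3 pairs after 5 d (sod2, gpx1a and prdx1) and 3 after 30 d (gpx1a, gpx4a and prdx1), as were 22% of all tested genes at either time, and cat was lower in all 3 pairs at both, as were 18.9% and 18.6%. Both comparisons share the control libraries, and the pairing of replicates 1 and 2 by number is an assumption.

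**Figure D1:**
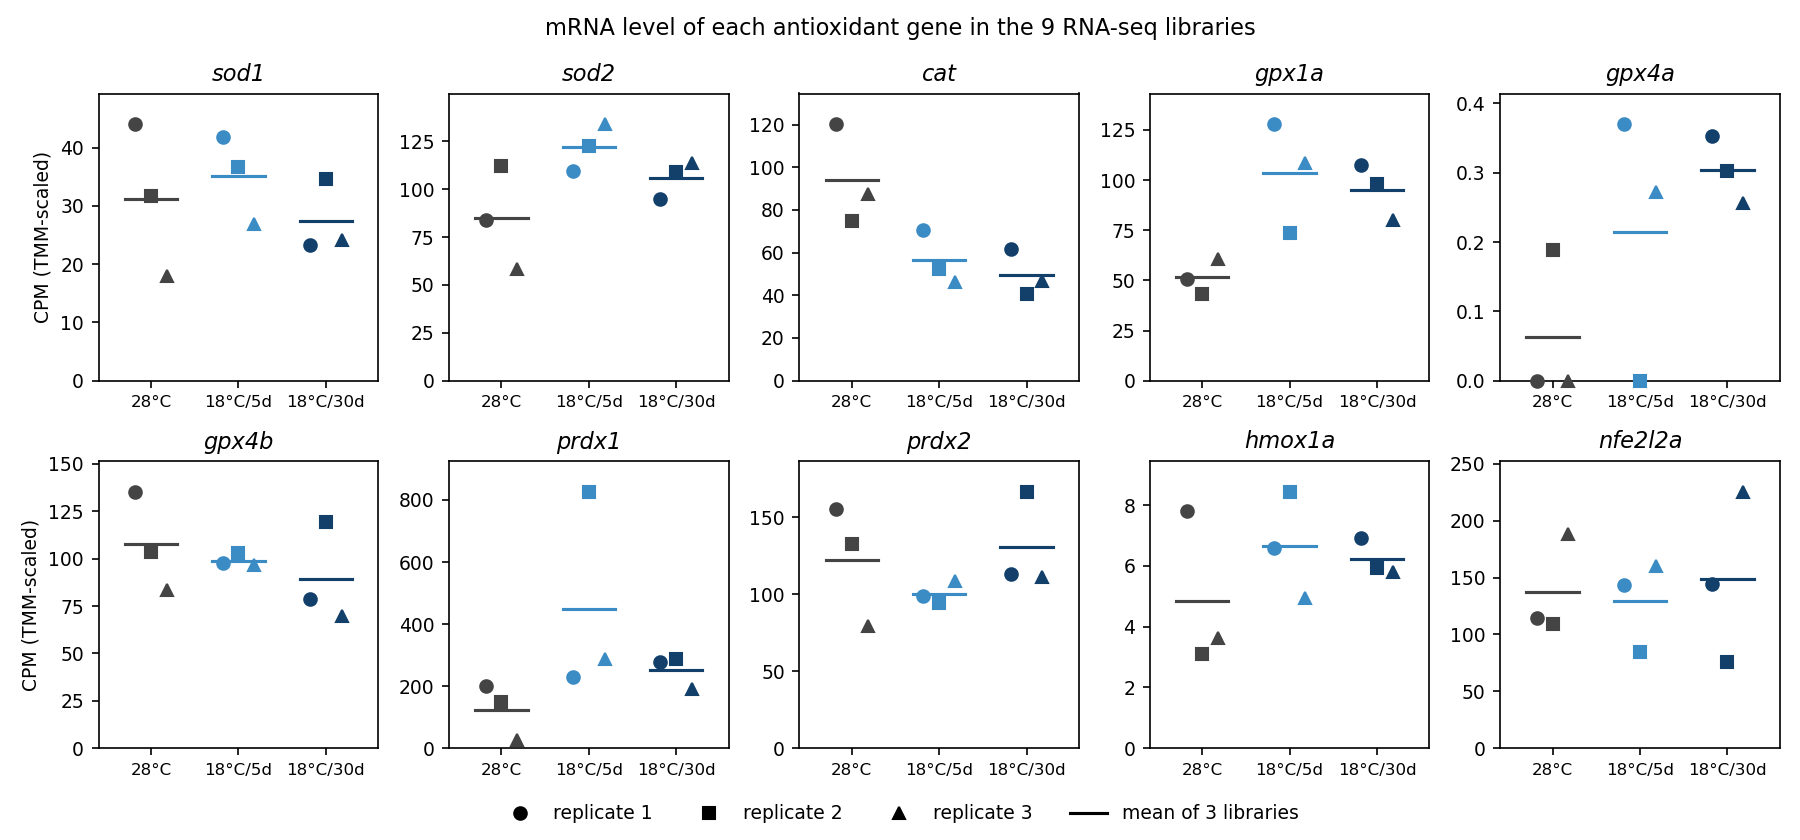
Each panel plots 1 antioxidant gene, with the level in counts per 1000000 counted reads after TMM scaling (CPM) on a vertical axis that starts at 0 and the 3 conditions on the horizontal axis. Points are single libraries, with a shape for each replicate number, and bars are means of 3 libraries. The gpx1a points of both cold conditions lie above 73 and those in the controls below 61, whereas the cat points lie below 71 in the cold and above 74 in the controls.

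The superoxide dismutases come first in the pathway. sod1 (ENSDARG00000043848) encodes the copper-zinc enzyme of the cytosol. In CPM, its level was 44.0, 31.7 and 18.0 in replicates 1 to 3 in the controls, 41.7, 36.6 and 26.8 after 5 d, and 23.2, 34.6 and 24.1 after 30 d. The 3 conditions overlapped, and the largest spread was among the control libraries. The log2 fold change was 0.16 ± 0.34 (SE) after 5 d and -0.19 ± 0.34 after 30 d (adjusted p = 0.951 and 0.877 in edgeR).

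The manganese enzyme of mitochondria is encoded by sod2 (ENSDARG00000042644). Its CPM was 83.9, 112 and 58.1 in the controls, 109, 123 and 134 after 5 d and 95.0, 109 and 113 after 30 d. After 5 d each library was above its control counterpart of the same number, but 1 library in the controls (replicate 2) overlapped with the cold ones. The difference in log2 units was 0.52 ± 0.27 after 5 d and 0.32 ± 0.27 after 30 d, with adjusted p of 0.526 and 0.685 in edgeR.

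Catalase, encoded by cat (ENSDARG00000004909), splits hydrogen peroxide into water and oxygen. Its CPM was 120, 74.8 and 87.4 in the controls, 70.5, 52.4 and 46.5 after 5 d and 61.6, 40.4 and 46.6 after 30 d, with means of 94.1 ± 23.4, 56.5 ± 12.5 and 49.5 ± 10.9 (SD, n = 3 each). Every cold library was below every control library. The level after 5 d was 0.60 of that in the controls (log2 fold change -0.74 ± 0.28, unadjusted p = 0.0264, adjusted p = 0.359 in edgeR), and the level after 30 d was 0.53 of it (-0.93 ± 0.28, unadjusted p = 0.00887, adjusted p = 0.192 in edgeR). The log2 ratios of the 3 same-numbered library pairs were -0.96, -0.89 and -0.91 after 30 d and -0.77, -0.51 and -0.91 after 5 d. With the replicate block the 30 d difference was -0.92 ± 0.18 and its adjusted p was 0.0509, which just missed the threshold. After 5 d the blocked adjusted p in edgeR was 0.109.

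Glutathione peroxidase 1, the product of gpx1a (ENSDARG00000018146), reduces hydrogen peroxide with glutathione in the cytosol. Its CPM was 50.6, 43.2 and 60.6 in the controls, 128, 73.7 and 108 after 5 d and 108, 97.8 and 80.0 after 30 d, with means of 51.4 ± 8.73, 103 ± 27.4 and 95.2 ± 14.0 (SD, n = 3 each). Every cold library was above every control library. The fold over the controls was 2.01 after 5 d (log2 fold change 1.01 ± 0.27, unadjusted p = 0.00471, adjusted p = 0.223 in edgeR), and gpx1a ranked at place 413 of 19622 genes by p. After 30 d the fold was 1.85 (0.89 ± 0.27, unadjusted p = 0.00933, adjusted p = 0.195 in edgeR). The same-numbered pairs gave log2 ratios of 1.34, 0.77 and 0.84 after 5 d and of 1.09, 1.18 and 0.40 after 30 d. The replicate block left the adjusted p in edgeR at 0.102 and 0.0913. DESeq2, an alternative test, placed the 5 d difference just past the threshold (log2 fold change 1.01, adjusted p = 0.0493) and the 30 d difference short of it (adjusted p = 0.0796). Over all alternatives the adjusted p after 5 d ran from 0.0493 to 0.489.

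**Figure D2:**
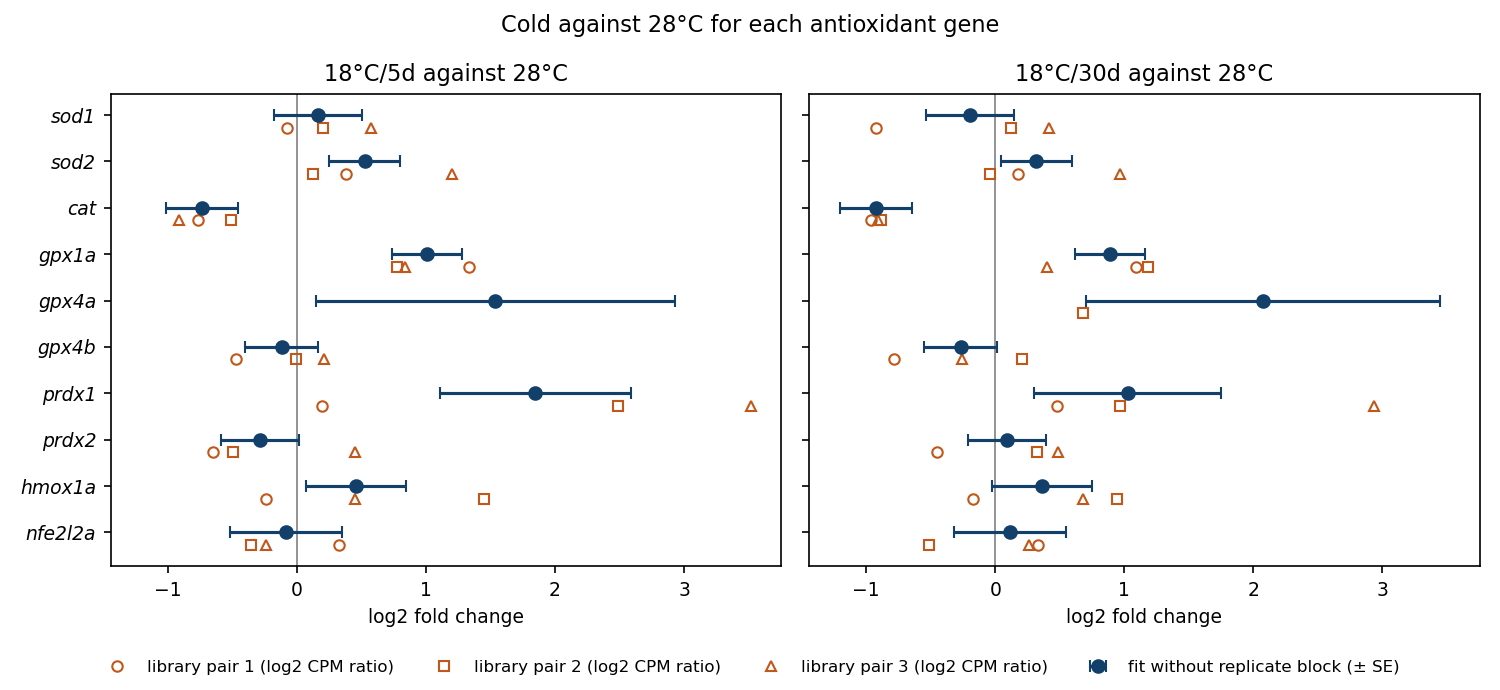
The log2 fold change against the controls is plotted for each antioxidant gene after 5 d (left) and 30 d (right). Filled points with bars are the edgeR estimates without a replicate block and their standard errors, and open symbols are the log2 CPM ratios of the 3 same-numbered library pairs, left out where a library was at 0 (gpx4a). For cat all 3 pairs lie below 0 and for gpx1a all 3 lie above 0 at both times, whereas the pairs of sod1, gpx4b, prdx2, hmox1a and nfe2l2a fall on both sides.

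The 2 copies of glutathione peroxidase 4 stood at opposite ends of the RPKM order given above. The transcript of gpx4b (ENSDARG00000076836) had a CPM of 135, 104 and 83.6 in the controls, 97.7, 103 and 96.5 after 5 d and 78.5, 119 and 69.9 after 30 d. All conditions overlapped, and the log2 fold change was -0.12 ± 0.28 after 5 d and -0.27 ± 0.28 after 30 d (adjusted p = 0.962 and 0.755 in edgeR). For gpx4a (ENSDARG00000068478) the raw counts were 0, 8 and 0 in the controls, 14, 0 and 6 after 5 d and 13, 12 and 6 after 30 d. The count was 0 in 3 of the 9 libraries, and no difference was detected (adjusted p = 0.784 and 0.574 in edgeR). Reads that match both copies could have been split between them, and how such reads were counted is not given in the sources used here.

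Peroxiredoxins reduce peroxides with electrons from thioredoxin. The CPM of prdx1 (ENSDARG00000058734) was 200, 147 and 25.01 in the controls, 229, 826 and 287 after 5 d and 279, 289 and 191 after 30 d. This was the widest spread of the 10 genes apart from gpx4a. The 5 d libraries were all above the control libraries, while the lowest 30 d library lay below the highest control library. The fold over the controls was 3.60 after 5 d (log2 fold change 1.85 ± 0.74, unadjusted p = 0.033, adjusted p = 0.386 in edgeR) and 2.04 after 30 d (1.03 ± 0.72, adjusted p = 0.604). The pairs after 5 d gave log2 ratios of 0.19, 2.49 and 3.52, so the size of the difference rested on replicates 2 and 3. Leaving out 1 library at a time moved the 5 d fold between 2.07, without 5 d replicate 2, and 5.19, and without control replicate 3, which stood apart in krt4 and lum, it was 2.57. Without that control library the folds after 5 d and 30 d were 2.20 and 2.02 for gpx1a and 0.58 and 0.51 for cat.

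The other cytosolic peroxiredoxin gene, prdx2 (ENSDARG00000025350), had a CPM of 155, 133 and 79.4 in the controls, 98.7, 94.2 and 108 after 5 d and 113, 166 and 111 after 30 d. Both cold conditions lay within the range of the control libraries or overlapped with it. The log2 fold change against the controls was -0.29 ± 0.30 after 5 d and 0.09 ± 0.30 after 30 d (adjusted p = 0.837 and 0.941 in edgeR).

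Heme oxygenase 1, encoded by hmox1a (ENSDARG00000027529), breaks down heme and is in mammals a classical NRF2 target. Its CPM was 7.82, 3.09 and 3.62 in the controls, 6.61, 8.44 and 4.94 after 5 d and 6.93, 5.94 and 5.80 after 30 d. Replicate 1 in the controls was within the range of the cold libraries, and the 2 others were below all of them. The log2 fold change was 0.46 ± 0.39 after 5 d and 0.36 ± 0.39 after 30 d (adjusted p = 0.762 and 0.764 in edgeR).

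The transcription factor gene nfe2l2a (ENSDARG00000042824) had a CPM of 115, 109 and 188 in the controls, 143, 84.9 and 160 after 5 d and 144, 76.1 and 225 after 30 d. In each condition replicate 3 was the highest and replicate 2 the lowest, and the 3 conditions overlapped. The log2 fold change was -0.08 ± 0.43 after 5 d and 0.11 ± 0.43 after 30 d (adjusted p = 0.991 and 0.942 in edgeR), and the replicate block narrowed these to -0.10 ± 0.23 and 0.02 ± 0.23. Protein release from its inhibitor is not visible in mRNA.

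Between the 2 times in the cold no antioxidant gene passed the test. For 30 d against 5 d, the log2 fold changes of the 10 genes ran from -0.82 (prdx1, SE 0.72) to 0.54 (gpx4a, SE 1.27), and every adjusted p in edgeR was 0.9999 with 0 genes of 19622 called. The prdx1 value rested on 5 d replicate 2, the library with a CPM of 826, and was -0.027 without it. The log2 fold change was -0.12 ± 0.27 for gpx1a and -0.19 ± 0.28 for cat. Only prdx2 was separated without overlap (0.38 ± 0.30, unadjusted p = 0.244), higher after 30 d, where 3.19% of all tested genes were, and 0 of the 10 were lower in this way, beside 2.31%.

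The wider redox system was examined in 7 lists with 108 genes of which 93 were tested. In edgeR without the block, 0 of the 93 were called in any comparison, and at an unadjusted p under 0.05 there were 13 higher and 9 lower at each time against the controls. Of all tested genes, 6.17% were higher and 5.15% lower at that p after 5 d, and 7.99% and 5.67% after 30 d. With the replicate block, 0 were called after 5 d and 5 after 30 d, 3 higher and 2 lower, against 1.51% of all tested genes. The median log2 fold change of the 93 genes was 0.03 after 5 d and 0.14 after 30 d, beside -0.01 and -0.01 over all 19622 genes. That of the 10 antioxidant genes was 0.31 and 0.22, with 6 above and 4 below 0 after 5 d and 7 and 3 after 30 d. These medians are raised by the barely detected gpx4a (1.54 ± 1.39 and 2.08 ± 1.37, SE), and a shift of the 10 genes as a set was not tested.

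The 5 genes called with the block include both makers and removers of oxidants. Of the enzymes that make oxidants, cybb encodes the catalytic subunit of the phagocyte NADPH oxidase. Its CPM was 2.34, 2.93 and 1.58 in the controls and 7.18, 9.77 and 6.87 after 30 d (blocked fold 3.55, adjusted p = 0.0354 in edgeR). The level of cybb was low, with an RPKM of 0.23 to 0.41 in the controls and 0.94 to 1.16 after 30 d. In the same list ero1b, whose product forms disulfides in the endoplasmic reticulum and releases hydrogen peroxide, had a CPM of 18.28, 16.9 and 15.2 in the controls and of 36.2, 42.0 and 36.0 after 30 d (blocked fold 2.26, adjusted p = 0.0465 in edgeR). Both were higher in every 30 d library than in any control library. The methionine sulfoxide reductase gene msrb3 had a CPM of 13.9, 13.2 and 25.09 in the controls and of 32.6, 64.3 and 62.6 after 30 d (blocked fold 3.03, adjusted p = 0.034 in edgeR).

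The other 2 genes were lower. The CPM of gpx8, a peroxidase of the endoplasmic reticulum, was 11.7, 10.6 and 14.4 in the controls and 4.98, 3.78 and 4.78 after 30 d (blocked fold 0.37, adjusted p = 0.0414 in edgeR). The glutathione S-transferase gene gstm.1 had a CPM of 28.0, 22.2 and 16.6 in the controls and of 10.3, 6.92 and 8.96 after 30 d (blocked fold 0.40, adjusted p = 0.0408 in edgeR). Without the block the adjusted p of these 5 genes in edgeR lay between 0.0846 (gpx8 and ero1b) and 0.141 (msrb3), so none passed there. After 5 d the CPM was 6.63, 4.45 and 3.13 for cybb, 28.1, 30.0 and 40.2 for ero1b and 23.8, 40.7 and 51.6 for msrb3. It was 5.92, 6.58 and 4.63 for gpx8 and 15.6, 12.3 and 8.76 for gstm.1. Only msrb3 overlapped with its controls at this time, so the differences were not confined to 30 d, although none was called after 5 d.

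List by list, the lowest median belonged to the glutathione S-transferases, which join glutathione to electrophiles. Of their 18 tested genes, 11 had a log2 fold change below 0 at each time, with medians of -0.55 and -0.64, and 6 and 7 were lower than in the controls without overlap, as were 8.35% and 8.5% of all tested genes. Another 3 and 1 of the 18 were higher without overlap, as were 9.27% and 10.3% of all tested genes. The regulators of Nfe2l2a (its relatives, the keap1, bach and small maf genes and the degradation machinery) had medians of 0.35 and 0.38 over 16 genes. The other target genes of NRF2 known from mammals had medians of 0.26 and 0.26 over 19 genes, with 12 above 0 and 7 below 0 at each time. The remaining 4 lists had medians between -0.18 and 0.22. Apart from the 5 genes above, 0 genes of the 7 redox lists were called in either fit. Of the cell type markers, 1 of the 13 tested markers of other cell types was called lower after 30 d with the replicate block, and 0 fibroblast markers were called.

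**Figure D3:**
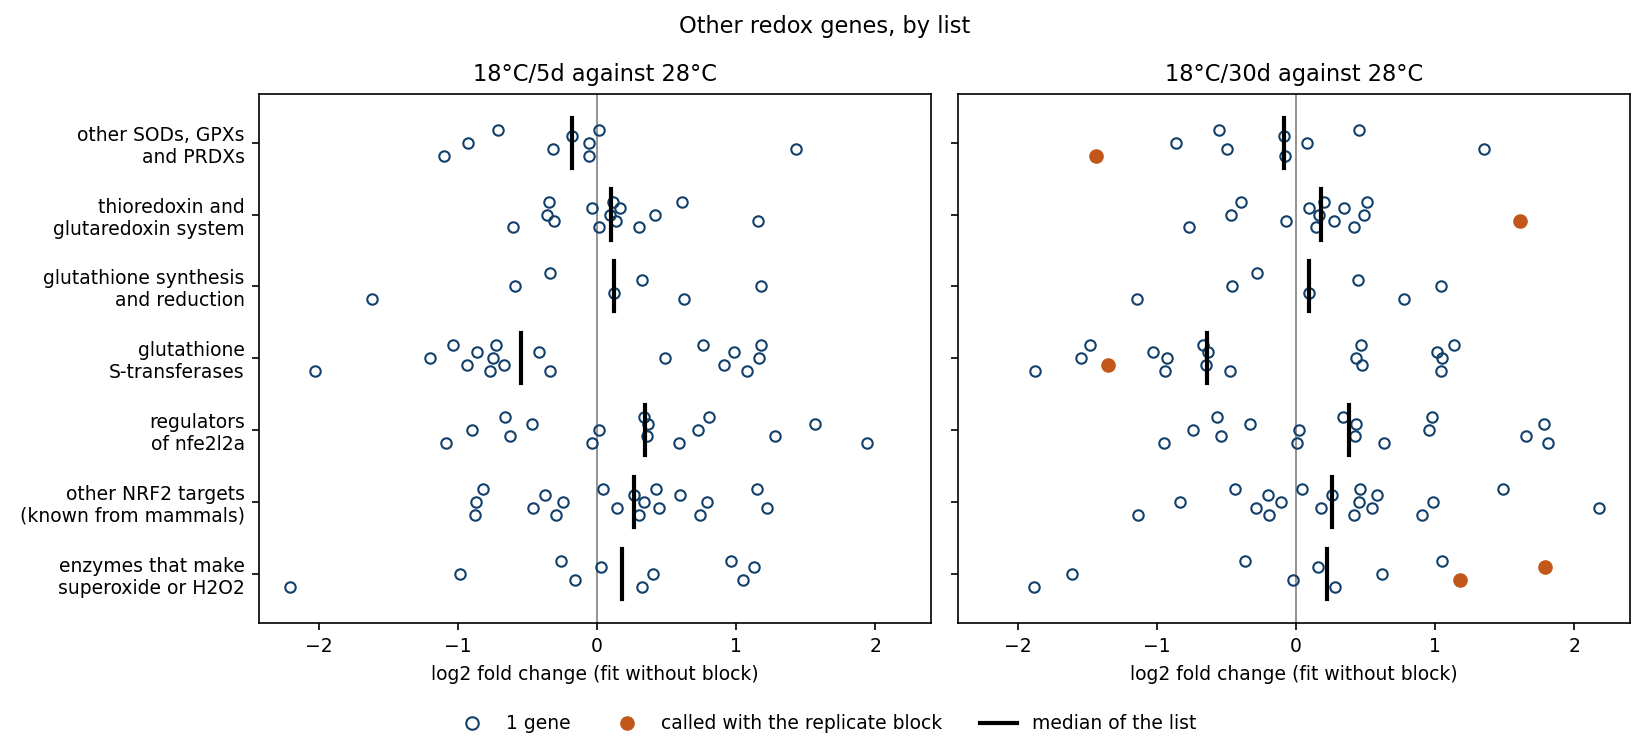
Each open circle is 1 tested redox gene outside the 10 antioxidant genes, placed by its log2 fold change against the controls after 5 d (left) and 30 d (right) in the fit without a block, and black bars are list medians. The 5 filled circles, all after 30 d, are the genes called with the replicate block, and in every list genes lie on both sides of 0.

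The methylation data were searched for the same 10 genes. Of the 160561 peaks, 10 were annotated to 5 of them: nfe2l2a had 5, sod1 had 2, and prdx1, gpx4b and gpx4a had 1 each. No peak was annotated to sod2, cat, gpx1a, prdx2 or hmox1a, so cat and gpx1a had no methylation value. A peak was annotated to 18777 of the 32677 genes (57.5%) and a promoter peak to 8168, beside 5 and 2 of the 10. Each condition was 1 library, so the Fisher's exact tests below compare libraries and not conditions. A peak was called at a false discovery rate (FDR) of at most 0.01 over all peaks and a 2-fold or larger ratio, in either direction, between values of reads per 1000000 reads on peaks (RPM) plus 1.

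Of the 10 peaks, 0 were called higher and 2 lower after 5 d against the controls, where 11.3% and 12.5% of all peaks were called. After 30 d against the controls 1 was called higher and 2 lower (10.9% and 9.25% of all peaks), and between the times 0 higher and 1 lower (14.4% and 8.5%). These shares are near the background. All of these calls had 0 reads in 1 of the libraries compared. Of all peaks with reads in only 1 of the 2 libraries, 58%, 65.3% and 55.6% were called in the 3 comparisons, but 4.22%, 0.461% and 4.26% of those with reads in both. No peak has exactly 1 read in any library and the smallest values above 0 were 3, 2 and 3 reads. A listed 0 may therefore stand for reads that were not reported, and it was taken here as under 3 reads. That limit is an assumption, since the reads behind a listed 0 are not known for any single peak. The least folds given below hold only under this floor of 3 reads, whereas their FDR values come from the test with the listed 0. With the smallest count of a library in place of its zeros, 0 of the 10 peaks were called.

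**Figure D4:**
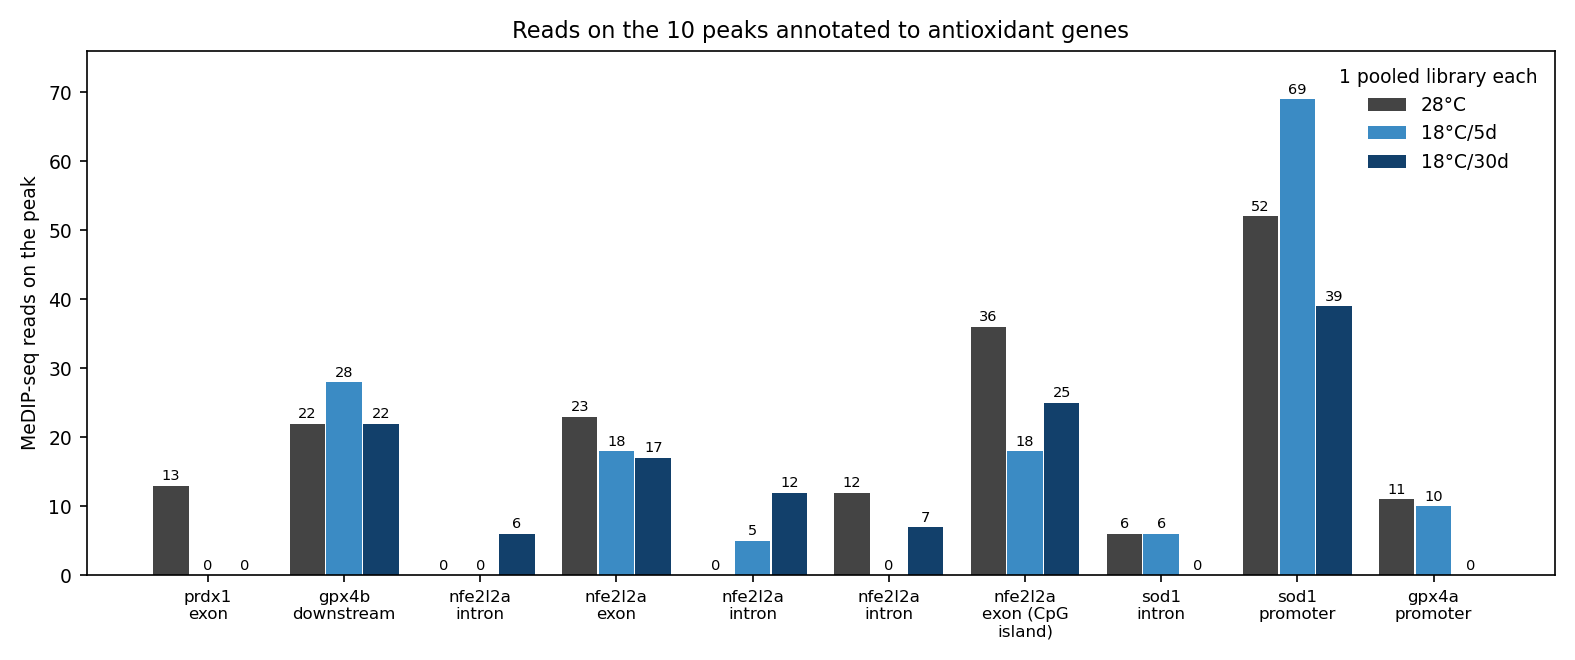
Bars give the MeDIP-seq reads on each of the 10 peaks annotated to antioxidant genes, with 1 pooled library per condition and the gene and annotated region named under each group. The sod1 promoter peak had the most reads (52, 69 and 39), and 6 of the 10 peaks had 0 reads in at least 1 library.

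The promoter peak of sod1 was the deepest. It lay at chr10:26335553-26336864 (Zv9/danRer7), outside CpG islands, and held 52 reads in the controls, 69 after 5 d and 39 after 30 d, an RPM of 17.6, 28.0 and 16.2. The ratio of RPM plus 1 against the controls was 1.56 after 5 d (FDR = 0.0358) and 0.92 after 30 d (FDR = 1), so neither was called. A second sod1 peak, in an intron at chr10:26330037-26330470, held 6, 6 and 0 reads and passed in no comparison.

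The promoter peak of gpx4a at chr22:17820545-17821150 held 11 reads in the controls, 10 after 5 d and 0 after 30 d. Set against the floor of 3 reads, its RPM after 30 d was at least 2.99-fold lower than in the controls and at least 3.25-fold lower than after 5 d. The FDR with the listed 0 was 0.00814 and 0.00838. This is the gene with 0 to 14 RNA-seq counts per library.

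The peak of prdx1 lay in an exon at chr2:5749729-5750203 and held 13 reads in the controls, 0 after 5 d and 0 after 30 d. It was the only one of the 10 peaks called against the controls at both times, at least 3.62-fold lower after 5 d (FDR = 0.00257) and at least 3.53-fold lower after 30 d (FDR = 0.00351). The mRNA of the same gene did not pass the test at either time.

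The 5 peaks of nfe2l2a lay on chromosome 9 and did not move together. The peak in an exon within a CpG island, at chr9:1668181-1670680, held 36, 18 and 25 reads in the control, 5 d and 30 d libraries, and another exonic peak at chr9:1657965-1659386 held 23, 18 and 17. Neither was called in any comparison. The intronic peak at chr9:1667434-1667984 held 12, 0 and 7 reads and was lower after 5 d than in the controls (FDR = 0.00421 with the listed 0). The difference was at least 3.34-fold against the floor of 3 reads. In the opposite direction, the intronic peak at chr9:1660713-1661478 held 0, 5 and 12 reads and was higher after 30 d than in the controls (FDR = 9.1e-04 with the listed 0). Here the difference was at least 4.91-fold against that floor. A further intronic peak at chr9:1655429-1656089 held 0, 0 and 6 reads and did not pass. The gpx4b peak downstream of its gene, at chr2:57365775-57367882, held 22, 28 and 22 reads and was not called either.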

How the data were processed

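RNA-seq: the authors deposited raw counts per Ensembl gene and RPKM values (the count per kilobase and per 1000000 of the library total, as recomputation showed). The paper does not describe the RNA-seq steps. The submitters' processing notes name Bowtie2, bedtools and danRer7. MeDIP-seq: the authors aligned reads to Zv9/danRer7 with Bowtie2, called peaks with MACS, merged them with Bedtools and deposited read counts per peak, with region, CpG island and gene annotation. Deposited TPM, RPM, ratio, fold change and p-value columns were not used. The input DNA library was not analysed here.

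Counts were tested with edgeR 4.0.16 in R 4.3.3 (TMM, filterByExpr, quasi-likelihood test, 9 libraries in 1 fit, no block). CPM values use TMM-scaled library sizes. After removing condition means, same-numbered libraries correlated across genes by 0.251 to 0.653 (mean 0.456) and differently numbered ones by -0.671 to 0.491 (mean -0.204). Among replicates 1 and 2 alone, the ranges were 0.251 to 0.618 for the same number and 0.128 to 0.491 for different numbers. These overlapped. The numbers were taken to pair the libraries, which for replicates 1 and 2 is an assumption that the correlations do not settle. The labels do not state that cultures were paired, or that replicates were separate cultures, so p-values measure the spread between these libraries. Peaks were tested with Fisher's exact test against reads on all peaks (2952954, 2465050 and 2406158 reads in the control, 5 d and 30 d libraries), in scipy 1.17.1. The test code was also run on simulated data. Their spread between libraries was set and not fitted to these libraries, and peaks with 0 reads were filled in. Those runs therefore do not measure the power of the tests here. RNA-seq alternatives were a replicate block, DESeq2 1.42.0, scaling by upper quartiles, all genes with a count, a fit to 6 libraries at a time, replicates 1 and 2 only, and leaving out each library.

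All 10 antioxidant genes are named, and of other redox genes those called with or without the block. Identifiers were matched through a current zebrafish name table or, requiring at least 90% identity of the best hit, through RefSeq or the deposited symbol list. The gene nfe2l2a was matched by its description in the peak annotation. Genes and lists were chosen with earlier results of these data known.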

Additional observations from a re-analysis of the deposited data

How the results depend on the processing

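The count of antioxidant genes called was 0 in each comparison under all alternatives except DESeq2 after 5 d against the controls, which called 1 (gpx1a), and leaving out 1 library at a time gave 0 to 0. Counts over all genes moved more. After 5 d against the controls, 0 genes were called, 555 with DESeq2, 51 with the replicate block and 1 with replicates 1 and 2 only. After 30 d against the controls, 12 were called, 899 with DESeq2, 297 with the replicate block, 54 with replicates 1 and 2 only, 2 without a filter, 0 with only the 6 libraries compared and 0 to 2 when 1 library was left out, whichever it was. Between the times, DESeq2 called 2. The cause was not tested. The block changed no call of an antioxidant gene.

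For gpx1a and cat, leaving out 1 library kept the fold against the controls at 1.77 to 2.30 and 0.53 to 0.70 after 5 d, and at 1.71 to 2.02 and 0.46 to 0.61 after 30 d, with adjusted p in edgeR from 0.196 to 0.647. Of 449 values of single genes under alternatives, 426 kept direction and call, 1 gained a call and 22 changed sign, none of them called. With replicates 1 and 2 only, the log2 fold change of nfe2l2a became 0.011 after 5 d and -0.030 after 30 d against the controls and -0.041 between the times, that of prdx2 -0.033 after 30 d against the controls, and those of gpx1a and gpx4b 0.049 and 0.0097 between the times. The other sign changes came with 1 library left out. Against the controls after 5 d these ranged from -0.12 to 0.49 for sod1, -0.27 to 0.082 for gpx4b and -0.27 to 0.21 for nfe2l2a, and after 30 d from -0.48 to 0.13 for sod1, -0.15 to 0.30 for prdx2 and -0.32 to 0.43 for nfe2l2a. Between the times prdx1 kept its sign but ranged from -1.14 without 5 d replicate 1 to -0.027 without 5 d replicate 2. The sign changes between the times ranged from -0.38 to 0.0017 for cat, -0.31 to 0.064 for gpx1a, -0.083 to 1.31 for gpx4a, -0.27 to 0.11 for hmox1a and -0.23 to 0.51 for nfe2l2a.

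All MeDIP-seq calls on the antioxidant genes rested on zeros. The calls on the 10 peaks (2, 3 and 1 in the 3 comparisons) went to 0, 0 and 0 when the smallest nonzero count of a library stood in for its zeros. At an FDR of at most 0.001 with 4-fold they went to 0, 1 and 0. A test kept to the 4 peaks that every library covers leaves out every called peak by design, and it called 0, 0 and 0. Over all peaks, 38075, 32357 and 36757 calls became 7553, 1966 and 7699 with zeros replaced, 2525, 79 and 2386 with reads in all 3 libraries, and 13003, 11649 and 11513 at the stricter threshold. A pseudocount of 0.1 and median-ratio totals left the calls on the 10 peaks at 2, 3 and 1. With 1 pooled library per condition and at most 69 reads on a peak, differences between cultures could not be assessed.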
